A study of Mus musculus with 401 samples.

Results

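Kinesins are motor proteins that use ATP to walk along microtubules or to take microtubule ends apart. Some build the spindle, move chromosomes and complete cell division, and others carry vesicles, organelles and RNA through the cell. A fully grown oocyte is held in meiotic prophase with its spindle still to be built, and the cumulus cells around it divide by mitosis and reach it through long processes. The family was taken as every protein-coding gene present in both count files whose symbol is Kif followed by a number, together with Kifc1, Kifc2 and Kifc3, which gave 39 of the 45 symbols that begin this way. By role, 12 members were grouped as spindle and mitotic kinesins, 17 as transport kinesins and 10 as other kinesins. Kif12 and Kif2b were each present in 1 of the files only, Kif1bp encodes a binding protein and not a kinesin, and the remaining symbols belong to an antisense transcript and to pseudogenes.

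The study sequenced total RNA from single mouse oocytes and from the pool of cumulus cells of the same oocyte-cumulus complex, to compare ages, calorie restriction and hyperovulation, a treatment given to raise the number of oocytes. All mice were B6D2F1 (C57BL/6 x DBA/2). The libraries fall into 2 sets, and 399 of the 401 deposited libraries, from 202 of 203 complexes, were analysed. They carry 41 mouse labels, of which 11 belong to the first set and 30 to the second, and the label Old1_2 joins the names of more than 1 mouse.

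In the first set all mice were hyperovulated. Young mice (2 months, free feeding) gave 16 oocyte and 15 cumulus libraries from 2 mouse labels. Middle-aged mice (9 months, free feeding) gave 14 and 15 from 4 labels, and old mice (14 months, free feeding) gave 16 and 16 from 2 labels. Calorie-restricted mice, 9 months old and written CR here, gave 27 and 25 from 3 labels. In the second set all mice fed freely, and ages of 2, 4, 9 and 14 months were hyperovulated. The 2-month group gave 24 oocyte and 24 cumulus libraries from 5 labels, the 4-month group 39 and 40 from 8, the 9-month group 16 and 16 from 4, and the 14-month group 16 and 16 from 5. A further group of 2 months without hyperovulation gave 32 and 32 from 8 labels. Total counts per library ran from 559305 to 4536690 in oocytes and from 848243 to 2501005 in cumulus cells of the first set. In the second set they ran from 1238441 to 2583456 in oocytes and from 510029 to 1147286 in cumulus cells.

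The cell type in each label was checked against marker genes. All 73 and 127 oocyte libraries and all 71 and 128 cumulus libraries lay nearest to the mean of their own cell type. The 13 oocyte markers summed to between 19324.8 and 24503.8 CPM (read counts scaled to library size) in oocyte groups and to between 5.38 and 16.2 in cumulus groups. The 12 cumulus markers were less cleanly separated in the first set, where they summed to 482.7 CPM in young, 622.6 in middle-aged, 929.8 in old and 520.1 in CR oocytes. They summed to between 93.0 and 135.3 CPM in oocyte groups of the second set, and to between 11624.9 and 15992.5 in cumulus groups. Among oocyte labels of the first set Old1_2 had the highest sum, 1391 CPM, and Middle3 the lowest, 91.7 CPM from its 1 oocyte library. In another complex of Middle3 the library labelled oocyte correlated with the oocyte mean at r = 0.756 and with the cumulus mean at r = 0.938, and both libraries of that complex were left out. It held 209.5 counts of Kif11 and 0 of Kif5c, and its absence matters for the diet comparison given further on.

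Several members share reads with other genes, because the counting ignored strand and split reads that map to more than 1 place. In the libraries of the first set with a count, 93.1% of the counts of Kif2a, 85.4% of those of Kifc1, 81.3% of those of Kif5b and 75.7% of those of Kif15 were not whole numbers, so the levels of these genes are uncertain. The next highest shares were those of Kifc3 (74.3%), Kif3c (64.7%), Kif2c (58.3%), Kif4 (55.6%), Kif28 (54.3%) and Kif1c (52.8%), and their levels are uncertain too. The counts of Kif17, Kif5c, Kif23, Kif18b and Kif13b were not whole in at most 4.86% of the libraries of the first set that had a count. Exons of Kif17 overlap Sh2d5, those of Kif20a overlap Cdc23, those of Kif4 overlap Pdzd11 and those of Kif18a overlap Mettl15, and reads from such stretches cannot be told apart.

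Levels were compared between genes per length, as RPKM (reads per kilobase of transcript, scaled to library size), in freely feeding mice. In oocytes Kif22 was highest. It encodes a chromokinesin that pushes chromosome arms away from spindle poles, and lies at 127027729 to 127042471 on the minus strand of chromosome 7 in GRCm38. Its level was 57.0 ± 4.70 RPKM (SD, n = 8 mouse labels) in oocytes of the first set and 63.8 ± 4.64 (n = 30) in those of the second. Kif4, a chromokinesin that also works in the spindle midzone with Prc1, came next at 50.6 ± 4.76 and 56.8 ± 3.82 RPKM. These were followed by Kif23, which bundles midzone microtubules for cytokinesis, at 46.3 ± 3.90 and 46.6 ± 2.23, and by Kif17, which carries vesicles in dendrites and along cilia, at 44.8 ± 7.86 and 47.7 ± 4.01. Kif17 ranked below Kif23 in the first set and above it in the second. Kif2c, which takes microtubule ends apart, measured 38.9 ± 2.44 and 45.6 ± 3.01 RPKM, and Kif20a, which brings the chromosomal passenger complex to the midzone, 41.9 ± 2.69 and 44.4 ± 2.74. Apart from Kif17, the members at the top of the oocyte list were thus spindle and mitotic kinesins, although these oocytes had not yet formed a spindle. The 12 spindle and mitotic kinesins together reached 345 ± 18.7 RPKM (first set) and 372 ± 12.9 RPKM (second set).

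Cumulus cells had another order. Kif11, the motor that slides antiparallel microtubules apart to separate spindle poles, was highest at 33.9 ± 3.39 RPKM (n = 8) and 26.1 ± 4.59 (n = 30). Kif18b, which shortens astral microtubules, followed at 23.4 ± 1.99 and 23.4 ± 6.22. Kif5b, the widely expressed heavy chain of conventional kinesin, was at 21.7 ± 2.19 and 18.3 ± 3.46 but shares reads. Kif20a was at 20.1 ± 2.24 and 16.3 ± 3.22, and Kif22 at 20.9 ± 3.50 and 17.1 ± 4.07 RPKM. The spindle and mitotic kinesins summed to 183 ± 22 and 148 ± 24.5 RPKM in cumulus cells, and the transport kinesins to 102 and 94.5, against 123 and 120 in oocytes. Kif17 alone made up 44.8 and 47.7 RPKM of these oocyte sums, against 0.297 and 0.616 in cumulus cells. Without Kif17 the transport sum was therefore lower in oocytes than in cumulus cells. Levels of Kif5a, Kif6, Kif19a and Kifc2 were near 0 in both cell types. Ranked by CPM, which long genes raise, 3 of the 5 highest members of cumulus cells were kept in the first set and 2 for the second.

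**Figure D1:**
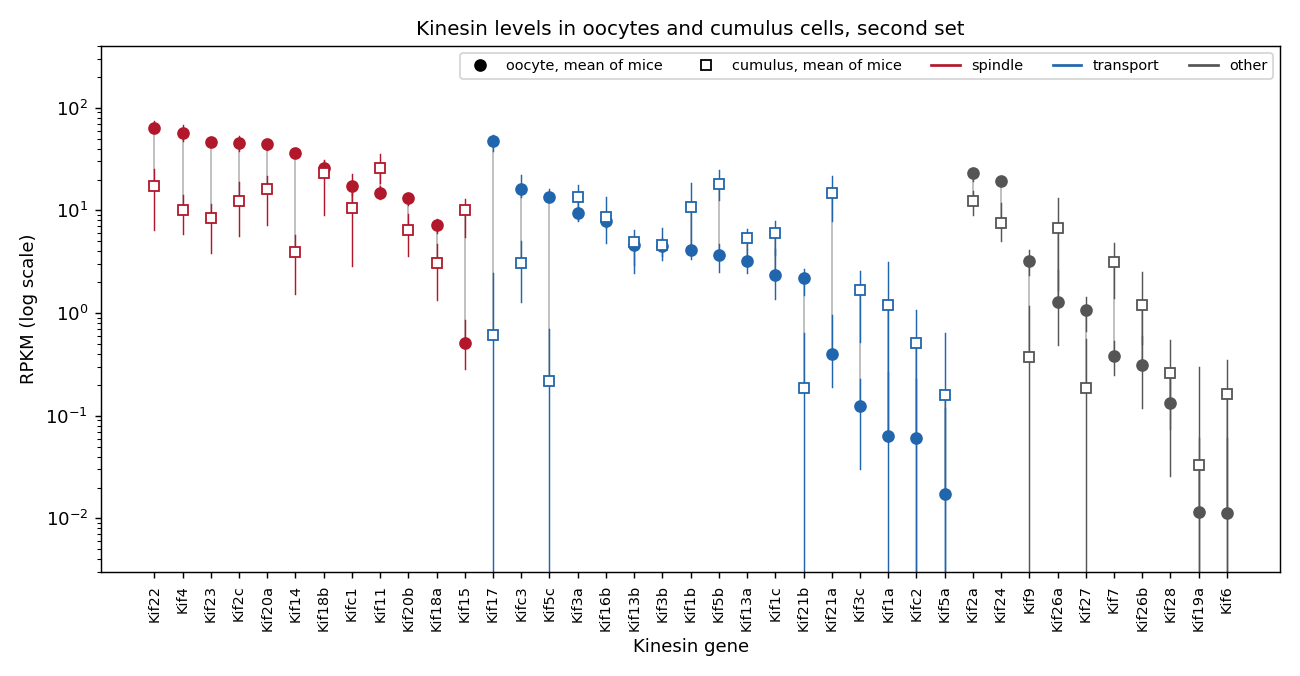
Level of each kinesin in the second set, in RPKM on a log axis, with circles for the mean over oocyte mouse labels, open squares for the mean over cumulus mouse labels (n = 30 each) and lines from the lowest to the highest label; a line that reaches the bottom includes labels at 0. Kif22 and Kif4 are highest in oocytes and Kif11 in cumulus cells, and Kif17 and Kif5c are far apart between the cell types.

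Oocytes were compared with the cumulus cells of the same mouse label to describe which motors each cell type holds. In the first set 32 of 39 members differed at an adjusted p under 0.05 (82.1%, and 82.1% of all genes tested), 21 of them higher in oocytes (53.8%, and 42.5% of all genes) and 11 lower (28.2%, and 39.6%). In the second set 36 of 39 differed (92.3%, and 89.7% of all genes), with 21 higher (53.8%, and 41.4%) and 15 lower (38.5%, and 48.3%). By edgeR the same 32 members were called in both sets and all in the same direction. Those called in the second set only were Kif1b, Kif1c, Kif13a and Kif11, all lower in oocytes. Fitting without the mouse block called 31 and 36, and DESeq2 called 35 and 38. The DESeq2 calls were 20 higher and 15 lower in the first set and 21 and 17 in the second. Kif16b, Kif3b and Kif13b, called higher in oocytes in both sets, had lower mean RPKM in oocytes than in cumulus cells.

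The widest differences belonged to a pair of transport kinesins of the oocyte. Kif17, on the plus strand of chromosome 4 at 138250435 to 138301967, ranged over mouse labels of the second set from 37.8 to 54.9 RPKM (median 48.3) in oocytes and from 0 to 2.43 (median 0.545) in cumulus cells. In the first set its range was 33.4 to 59.2 (median 44.9) in oocytes and 0 to 0.525 (median 0.375) in cumulus cells. Every oocyte label was thus far above every cumulus label, and 100 of the 128 cumulus libraries of the second set had any count of Kif17. The log2 difference was 7.66 ± 0.22 (SE, edgeR, adjusted p 3.79e-17, higher in 11 of 11 pairs) in the first set and 6.77 ± 0.14 (adjusted p 2.05e-33, 30 of 30 pairs) in the second. Kif5c, the neuronal heavy chain of conventional kinesin, ranged from 12.1 to 16.2 RPKM (median 13.7) in oocytes of the second set and from 0 to 0.705 (median 0.160) in cumulus cells, again with no overlap. Its log2 difference was 7.38 ± 0.25 (adjusted p 3.72e-16) and 6.47 ± 0.18 (adjusted p 2e-29). Conventional kinesin was thus divided between the cell types, since Kif5b fell by 1.27 and 1.82 on the log2 scale from cumulus cells to oocytes. Next among the members higher in oocytes were Kif21b (log2 difference 4.03 and 4.06), Kif9 (3.69 and 3.57), Kifc3 (3.64 and 2.92) and Kif14 (3.60 and 3.70).

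Among members higher in cumulus cells, Kif21a and Kif15 stood at levels that many reads support. Kif21a, a transport motor that also restrains microtubule growth at the cell cortex, ranged from 7.95 to 21.7 RPKM (median 14.7) in cumulus labels of the second set and from 0.192 to 0.948 (median 0.356) in oocyte labels. Kif15, a spindle motor that works beside Kif11, ranged from 5.48 to 12.9 (median 10.1) in cumulus labels and from 0.285 to 0.861 (median 0.475) in oocyte labels. For both genes the lowest cumulus label exceeded the highest oocyte label. The log2 difference of Kif21a was -3.57 ± 0.18 (edgeR, adjusted p 1.4e-13) in the first set and -4.75 ± 0.12 (adjusted p 2.89e-30) in the second. That of Kif15 was -3.21 ± 0.20 (adjusted p 4.79e-12) and -3.82 ± 0.09 (adjusted p 1.83e-32), with reads of Kif15 shared in part. Kif6 (-3.35 and -3.06) and Kif5a (-2.71 and -2.59) were also among the 5 lowest in the first set but had few reads, and the others were Kif3c (-2.26 and -3.27) in both sets and Kif1a (-2.13 and -3.82) in the second. Kif11, highest of all in cumulus cells, was not called in the first set (-0.14 ± 0.12, adjusted p 0.29) and was lower in oocytes of the second (-0.33 ± 0.05, adjusted p 4.77e-07). Its mean RPKM in freely feeding mice was 16.1 in oocytes and 33.9 in cumulus cells of the first set. In the second set it was 14.8 and 26.1, and mouse labels did not overlap in either set. RPKM and edgeR scale the libraries differently, so the size of the difference of Kif11 depends on the scaling.

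By role, spindle and mitotic kinesins were mostly higher in oocytes, with 10 higher and 1 lower in the first set and 10 higher and 2 lower in the second. Their median log2 difference was 1.81 and 1.83, against 0.04 and -0.30 for all genes. DESeq2 called 10 of them higher and 2 lower in each set. For the counts by role given here, 42.5% of all genes were higher and 39.6% lower in the first set. In the second set these shares of all genes were 41.4% and 48.3%. Transport kinesins were divided, with 7 higher and 6 lower in the first set, 7 higher and 9 lower in the second, and medians of -0.02 and -0.28. DESeq2 called 6 of them higher and 9 lower in the first set, and 7 and 10 in the second. With the scaling of DESeq2 the median of all genes moved by -0.40 in the first set and by -0.27 in the second. Relative to the median of all genes, the spindle median was 1.76 and 2.14 with edgeR and 1.80 and 2.28 with DESeq2. With DESeq2 0 of the called members turned direction. By mean RPKM, however, Kif16b, called higher, was at 8.06 in oocytes and 10.3 in cumulus cells of the first set. Kif3b was at 4.00 and 5.49 there, and Kif13b at 4.58 and 5.28. These members were lower in oocytes of the second set as well, so their direction differs between RPKM and the fits. The transport median relative to all genes was -0.06 with edgeR and -0.02 with DESeq2 in the first set, and 0.02 and 0.16 in the second, so it has no firm direction. The 17 proliferation markers gave 11 higher and 4 lower in oocytes of the first set and 12 and 4 in the second, with medians of 0.68 and 0.65. DESeq2 gave 10 higher and 6 lower in the first set, where the called marker Cdk1 turned direction, and 11 and 5 in the second, with medians of 0.33 and 0.52. The values of both lists overlapped, from -3.21 to 3.60 for spindle kinesins and from -2.35 to 4.06 for proliferation markers in the first set, and the difference between the lists was not tested.

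Among genes that work with kinesins, 14 of 25 were higher (42.5% of all genes) and 8 lower (39.6%) in oocytes of the first set, and 13 higher (41.4% of all genes) and 10 lower (48.3%) in those of the second. No difference between this list and all genes was tested, and the partners named next are single genes from it. Kifap3, which links the Kif3a and Kif3b motor to its cargo, was at a library median of 0.527 and 0.470 RPKM in oocytes against 9.38 and 6.84 in cumulus cells, and its log2 difference was -2.84 and -3.36. Prc1, the partner of Kif4, was higher in oocytes by 2.10 and 2.15, and Tacc3 by 3.62 and 3.58. Partners of transport motors in cilia and vesicle traffic, Ift88 (-2.36 and -2.49) and Mapk8ip1 (-2.74 and -4.79), were lower in oocytes, whereas Trak1 was higher (3.18 and 2.35).

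Sequence windows around RefSeq gene starts were read for a pair of motifs of cell-cycle promoters, the core of the cell-cycle homology region (TTTGAA) and the CCAAT box, counted on both strands. Windows of 300 bases were taken from the RefSeq GRCm38.p6 set of promoter sequences, which held 34 windows for 30 of the 39 members. TTTGAA was present in 10 of 11 spindle windows (90.9%), 1 of 13 transport windows (7.69%), 2 of 10 other windows (20%) and 17.9% of all 32851 windows. CCAAT was present in 7 of 11 spindle windows (63.6%), 4 of 13 transport windows (30.8%), 4 of 10 other windows (40%) and 37.4% of all. The spindle window without TTTGAA belonged to Kif18a. RefSeq starts differ from those of the gene annotation, and 6 of the 34 windows lie wholly inside the annotated gene, those of Kif14, Kif2c, Kif4, Kif17 and Kif27 and 1 of those of Kif1a. Of these 6 windows 5 hold TTTGAA, so for them the match is not in sequence before the annotated start. A match describes the sequence only, and no binding was measured.

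The printed windows are those of 5 spindle kinesins and, for contrast, of the oocyte transport kinesin Kif5c, from RefSeq GRCm38.p6, each written 5′ to 3′ along the gene's strand with the motifs in capitals.
Kif4, chrX:100625815-100626114, plus strand: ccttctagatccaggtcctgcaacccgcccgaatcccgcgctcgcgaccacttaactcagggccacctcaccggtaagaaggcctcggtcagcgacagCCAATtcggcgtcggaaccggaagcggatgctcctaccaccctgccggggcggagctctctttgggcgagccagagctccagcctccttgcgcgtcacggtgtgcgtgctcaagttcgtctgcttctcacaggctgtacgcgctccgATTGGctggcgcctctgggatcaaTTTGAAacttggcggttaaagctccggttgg
Kif23, chr9:61946750-61947049, minus strand: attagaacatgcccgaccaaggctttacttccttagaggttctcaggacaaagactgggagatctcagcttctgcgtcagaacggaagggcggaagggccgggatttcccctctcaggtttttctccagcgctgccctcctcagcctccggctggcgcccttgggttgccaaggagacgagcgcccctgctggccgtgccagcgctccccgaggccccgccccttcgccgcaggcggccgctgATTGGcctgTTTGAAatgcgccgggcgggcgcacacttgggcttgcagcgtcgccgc
Kif22, chr7:127042371-127042670, minus strand: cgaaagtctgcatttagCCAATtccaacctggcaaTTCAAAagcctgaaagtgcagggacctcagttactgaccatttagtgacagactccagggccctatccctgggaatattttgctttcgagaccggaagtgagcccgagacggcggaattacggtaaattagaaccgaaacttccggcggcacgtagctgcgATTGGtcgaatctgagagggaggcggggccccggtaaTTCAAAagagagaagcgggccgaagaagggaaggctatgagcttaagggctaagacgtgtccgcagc
Kif15, chr9:122950831-122951130, plus strand: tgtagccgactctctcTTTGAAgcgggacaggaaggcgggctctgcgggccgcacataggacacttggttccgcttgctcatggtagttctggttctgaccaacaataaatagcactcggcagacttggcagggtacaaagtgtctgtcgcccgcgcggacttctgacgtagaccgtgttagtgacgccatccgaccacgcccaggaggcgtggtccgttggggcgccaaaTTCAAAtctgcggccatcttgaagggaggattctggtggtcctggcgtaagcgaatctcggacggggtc
Kif11, chr19:37376132-37376431, plus strand: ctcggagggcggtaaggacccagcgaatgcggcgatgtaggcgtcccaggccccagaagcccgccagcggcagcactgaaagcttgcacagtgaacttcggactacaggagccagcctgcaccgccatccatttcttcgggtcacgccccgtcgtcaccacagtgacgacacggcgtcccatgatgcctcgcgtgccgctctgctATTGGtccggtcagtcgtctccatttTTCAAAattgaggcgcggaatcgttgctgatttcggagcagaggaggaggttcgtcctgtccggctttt
Kif5c, chr2:49619036-49619335, plus strand: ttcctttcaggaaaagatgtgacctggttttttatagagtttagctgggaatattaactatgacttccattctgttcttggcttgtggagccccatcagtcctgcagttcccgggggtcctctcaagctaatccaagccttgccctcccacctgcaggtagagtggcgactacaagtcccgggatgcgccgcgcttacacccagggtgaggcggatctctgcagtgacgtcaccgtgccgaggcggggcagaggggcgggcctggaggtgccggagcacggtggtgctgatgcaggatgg
Of these windows, those of Kif4, Kif23, Kif22, Kif15 and Kif11 hold TTTGAA on at least 1 strand, and that of Kif5c does not.

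Middle-aged mice on calorie restriction were compared with those feeding freely at the same age, to ask whether diet changes the oocyte. In oocytes 9 of 38 members tested were called (23.7%, and 8.51% of all genes tested), 8 of them higher in CR (21.1%, and 5.65% of all genes) and 1 lower (2.63%, and 2.86%), with 3 against 4 mouse labels. DESeq2 called 11 members, the same 9 among them, and 13.7% of all genes. The added members were Kif20a, lower in CR, and Kif3b, higher in CR.

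Kif5b, at 6201002 to 6242174 on the minus strand of chromosome 18, had the lowest adjusted p. Its levels were 32.4, 37.9, 29.8 and 31.9 CPM in Middle1 to Middle4 and 67.3, 54.8 and 52.5 in CR1 to CR3. The CR labels all lay above the middle-aged ones, and the log2 difference was 0.84 ± 0.14 (SE, edgeR, adjusted p 0.00624). Kif4 measured 261, 286, 275 and 249 CPM in middle-aged and 387, 376 and 412 in CR labels, without overlap, and its log2 difference was 0.59 ± 0.10 (adjusted p 0.00655). Kif23 measured 352, 375, 376 and 363 CPM in middle-aged and 497, 476 and 525 in CR labels. These did not overlap either, and the log2 difference of Kif23 was 0.49 ± 0.09 (adjusted p 0.0112). Kif26b, a kinesin without motor activity that acts in developmental signalling, was low throughout at 5.66, 4.71, 6.51 and 5.03 CPM in middle-aged and 9.39, 9.84 and 14.9 in CR labels. CR3 was highest and no middle-aged label reached CR1, with a log2 difference of 1.15 ± 0.22 (adjusted p 0.0116).

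Kif2c and Kif11 are named by the study, which chose them on these samples, so their values are not independent evidence. Kif2c measured 169.8, 174, 177 and 164 CPM in Middle1 to Middle4 and 234, 219.8 and 232 in CR1 to CR3. Kif11 measured 76.9, 83.6, 94.0 and 73.6 CPM in middle-aged and 109, 112 and 104 in CR labels. In both genes each CR label exceeded each middle-aged one, though for Kif11 Middle3 came near. The log2 difference was 0.46 ± 0.09 for Kif2c (edgeR, adjusted p 0.0158) and 0.45 ± 0.11 for Kif11 (adjusted p 0.0347).

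The remaining called members were transport motors and Kif18b. Kif13b, which carries signalling lipids and membrane proteins, measured 68.6, 55.4, 24.2 and 62.0 CPM in Middle1 to Middle4 and 82.9, 105 and 118 in CR1 to CR3. Middle3 was far below the other labels of its group, and the log2 difference was 0.96 ± 0.26 (edgeR, adjusted p 0.045). Kif1b, which carries mitochondria and vesicle precursors, measured 75.9, 73.6, 62.8 and 78.8 CPM in middle-aged and 86.1, 101 and 103 in CR labels. Its groups lay side by side without overlap, at a log2 difference of 0.44 ± 0.12 (adjusted p 0.0497). Kif18b was the member that edgeR called lower, from 78.0, 96.4, 84.2 and 89.8 CPM in middle-aged to 52.2, 65.6 and 61.95 in CR labels. Each CR label was below each middle-aged one, and the log2 difference was -0.50 ± 0.13 (adjusted p 0.0382).

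**Figure D2:**
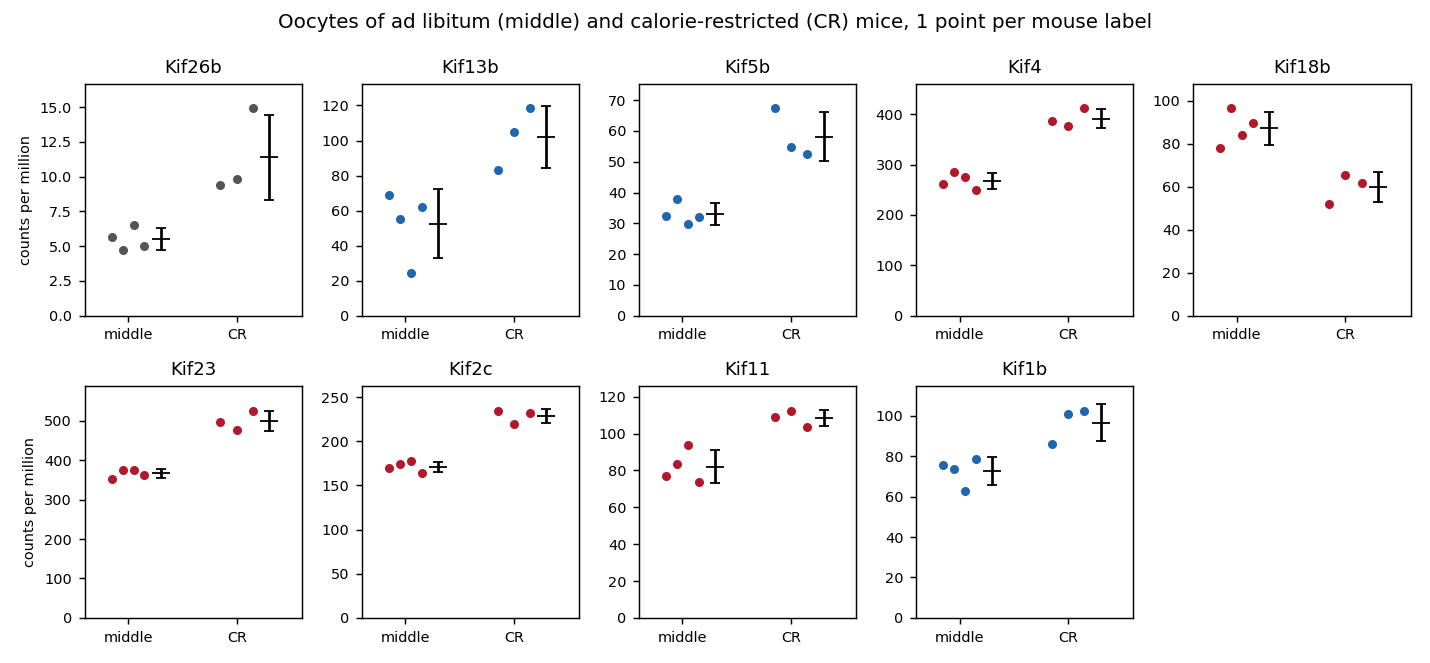
Level of the 9 members called between CR and middle-aged oocytes, in CPM, with 1 point per mouse label (4 middle-aged, 3 CR) and the mean and SD of each group. The CR labels lie above the middle-aged ones in 8 members and below them in Kif18b.

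Summed over the 12 spindle and mitotic kinesins the level was 1962 ± 100.2 CPM (SD, n = 4) in middle-aged and 2297 ± 77.8 (n = 3) in CR oocytes, and over the transport kinesins 769 ± 48.5 and 938 ± 43.0. The median log2 difference was 0.30 for spindle and mitotic kinesins (4 higher and 1 lower called), 0.44 for transport kinesins (3 higher called) and 0.33 for all members, against 0.06 for all genes. Of the 38 members 27 lay above 0 and 11 below. With DESeq2 the median of all members was 0.24 against -0.02 for all genes, and with gene length offsets 0.15 against -0.01. Of the 17 proliferation markers 13 lay above 0 and 4 below, with a median of 0.08 and 1 called, Top2a (0.59), which turned direction with all deposited libraries. Other settings called markers in both directions, 2 higher and 2 lower with DESeq2, 3 and 3 with libraries as units, 1 and 2 with filterByExpr and 1 and 1 with all groups in 1 fit, and gene length offsets called 0 higher and 1 lower. In 4 of the 7 other settings 9 lay above 0 and 8 below, and with all deposited libraries 8 lay above and 9 below. Prc1 (0.76, adjusted p 0.00256) and Cenpe (0.56, adjusted p 0.0111), a kinesin without a Kif symbol, were higher in CR oocytes, and Aurkb (-0.70, adjusted p 0.0139) was lower. Cenpe is also named by the study from these samples, so its value is not independent evidence.

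Markers of other cells were compared between these oocytes as well. The 12 cumulus markers summed to 622.6 CPM in middle-aged oocytes, with labels from 91.7 to 1075. In CR oocytes they summed to 520.1 CPM, with labels from 302.6 to 668.3, so the groups overlapped. Gja1 was the most abundant and none was at 0. Their median log2 difference was -0.32, with 8 of 12 below 0 and 2 called higher, Kitl (1.32) and Nr5a2 (0.48). The 4 luteal-like markers had a median of -3.18, with 4 of 4 below 0, 2 at an unadjusted p under 0.05, 0 called by edgeR and 0 by DESeq2. Their summed level was 223.6 CPM in middle-aged oocytes, where labels ran from 99.1 to 558.3, and 102.4 in CR oocytes, where they ran from 94.0 to 115.8. The median library was at 106.4 CPM in middle-aged and 98.1 in CR oocytes, and the highest at 1310 and 134.9. The most abundant, Abcb1b, made up 104.8 CPM of the sum in middle-aged and 90.7 in CR oocytes, and none was at 0. The 3 theca or stroma markers summed to 2.51 CPM in middle-aged and 1.08 in CR oocytes, with a median of -2.03. The part of other cells in the kinesin differences was not tested.

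The number of calls in this comparison depended on single labels, on 1 library and on gene length offsets. With these offsets edgeR called 4 of 38 members, Kif5b, Kif4, Kif26b and Kif18b, and 7.75% of all genes. Kif13b (adjusted p 0.0568), Kif2c (0.0713), Kif23 (0.156), Kif11 (0.183) and Kif1b (0.371) were no longer called, and the log2 difference was 0.28 for Kif23 and 0.16 for Kif1b. Leaving out Middle1 gave 7 called members (6.60% of all genes called), Middle2 gave 2, Kif4 and Kif5b (3.16%), Middle3 gave 12 (14.1%) and Middle4 gave 4 (5.04%). Leaving out CR1 (3.89%) or CR2 (2.74%) gave 4 each and leaving out CR3 gave 1, Kif5b (2.47%), so calls over all genes also rose and fell with the label left out. With the left-out complex put back, edgeR called 0 members and 2 genes in all, 14 members had an unadjusted p under 0.05, and the lowest adjusted p of the 9 was 0.0814. DESeq2 was not run with that complex. All 9 members kept their direction in each of these fits. CR oocyte libraries were also deeper, with a median total of 3578882 against 2332126, and diet and the preparation of the libraries cannot be told apart.

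In cumulus cells 0 of 38 members were called between CR and middle-aged mice by edgeR (0% of all genes), 2 had an unadjusted p under 0.05 (5.26%, and 8.29% of all genes), and DESeq2 called 0. Kif5b measured 174, 157, 115 and 155 CPM in Middle1 to Middle4 and 231, 202 and 188 in CR1 to CR3. All CR labels again lay above the middle-aged ones, but the log2 difference of 0.44 ± 0.15 did not pass (adjusted p 0.494). Kif11 and Kif2c differed by -0.08 and 0.02. Whether diet acts differently in the cell types was tested as an interaction, in which edgeR called 0 of 39 members (0.336% of all genes), 11 had an unadjusted p under 0.05 (28.2%, and 9.30% of all genes), and DESeq2 called 4. Those of DESeq2, whose share of all genes is given with the other settings further on, were Kif26b and Kif4 with a higher and Kif18b and Kif20a with a lower effect in oocytes. In that interaction 11 of 13 oocyte markers lay below 0 (median -0.98), 4 at an unadjusted p under 0.05 and 0 called. DESeq2 called 2 cumulus markers, Kitl and Nr5a2, higher there. In cumulus cells 10 of 10 oocyte markers tested lay above 0 in CR, with 0 called. They summed to 16.2 CPM in CR, with labels from 4.57 to 39.2, and to 5.38 in middle-aged cumulus cells. The median library was at 2.97 CPM in CR and 3.51 in middle-aged cumulus cells, and the highest at 426 and 13.7. The CR sum thus does not describe the typical CR library. The part of other cells was not tested.

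Ages of the first set were compared with young mice to ask what changes by middle and old age. In oocytes edgeR called 0 of 36 members at middle age (0% of all genes), with 2 at an unadjusted p under 0.05 (5.56%, and 2.63% of all genes) and 0 by DESeq2. At old age it called 0 of 37 (0% of all genes), with 8 at an unadjusted p under 0.05 (21.6%, and 8.98% of all genes) and 0 by DESeq2. Of those 8, the following were chosen after their values were seen. Kif15 measured 5.69 and 6.18 CPM in the young labels, 21.7 in Old1_2 and 9.02 in Old3. Kifc3, a motor of cell junctions and the Golgi apparatus, measured 154 and 122 CPM in the young labels, 56.8 in Old1_2 and 91.4 in Old3. Kif21b, a transport motor that also pauses microtubule growth, measured 32.3 and 33.0 CPM in the young labels, 15.7 in Old1_2 and 23.3 in Old3. In all of these Old1_2 was the label farthest from the young mice, and it also had the highest sum of cumulus markers among oocyte labels. The log2 differences were 1.38 ± 0.39 for Kif15 (adjusted p 0.553), -0.90 for Kifc3 and -0.75 for Kif21b. Kif15 is a gene of cumulus cells and Kifc3 and Kif21b are genes of oocytes in the comparison of cell types, and the 12 cumulus markers lay above 0 in 12 of 12, 7 of them at an unadjusted p under 0.05, 0 called by edgeR and 0 by DESeq2, with a median of 0.91. Luteal-like markers lay above 0 in 3 of 4 with a median of 3.50. The part of cumulus RNA in these differences was not tested. Without Old3 edgeR called 13 of 36 members and 18.3% of all genes, with Old1_2 as the only old label.

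In cumulus cells of the first set edgeR called 0 of 38 members at middle age (0% of all genes), with 1 at an unadjusted p under 0.05 (2.63%, and 3.20% of all genes) and 0 by DESeq2. At old age it called 0 of 38 (0.351% of all genes), with 5 at an unadjusted p under 0.05 (13.2%, and 9.45% of all genes) and 0 by DESeq2. The 5 lay above 0 and were Kif26a (0.62), Kif24 (0.52), Kif20b (0.35), Kif11 (0.25) and Kif21b (1.36), chosen after their values were seen. Kif21b had few reads there, with a count in 20 of 46 cumulus libraries of freely feeding mice and a median of 0 RPKM. Kif26a, a kinesin without motor activity, measured 32.6 and 39.7 CPM in the young labels and 53.0 and 61.4 in the old ones. Kif24, which acts at centrioles, measured 41.7 and 48.1 CPM in the young and 60.2 and 71.6 in the old labels. Both old labels lay above both young ones in these genes. All 12 spindle and mitotic kinesins were above 0, 11 of them with gene length offsets, 2 of them had an unadjusted p under 0.05, and their median was 0.23 against 0.02 for all genes. Other lists also lay to 1 side, with 0 called by edgeR and 0 by DESeq2 in each. Of the proliferation markers 14 of 17 lay above 0 (median 0.13, 1 at an unadjusted p under 0.05). Of the luteal-like markers 4 of 4 did (median 1.47, 1 at an unadjusted p under 0.05), with sums of 44.2 CPM in young and 104.0 in old cumulus cells, Cyp11a1 being the most abundant. Of the oocyte markers tested 10 of 11 lay below 0 (median -1.24, 1 at an unadjusted p under 0.05). They summed to 12.8 CPM in young cumulus cells, mostly from 1 label, and to 7.66 in old ones. The median library was at 4.58 CPM in both groups, and the highest at 164.3 in young and 55.7 in old cumulus cells. Zp3 and Gdf9 were the most abundant, and Figla was at 0 in old cumulus cells. The part of other cells was not tested.

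In the second set, each later age was compared with 2 months, so these comparisons share the mice of 2 months. In oocytes edgeR called 0 of 39 members at 4 months (0% of all genes), with 1 at an unadjusted p under 0.05 (2.56%, and 4.82% of all genes) and 0 by DESeq2. At 9 months it called 0 of 38 (0.102% of all genes), with 5 at an unadjusted p under 0.05 (13.2%, and 7.41% of all genes), and DESeq2 called 2, Kif1c higher and Kif22 lower. At 14 months it called 0 of 38 (0.221% of all genes), with 8 at an unadjusted p under 0.05 (21.1%, and 10.1% of all genes) and 0 by DESeq2.

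Kif22 and Kif1c were singled out after their values were seen. Kif22, the highest kinesin of the oocyte by RPKM, measured 360.3, 348, 331, 324 and 326 CPM in the labels of 2 months and 277, 289, 298 and 285 in those of 9 months. It ranged from 290.5 to 333 (median 299) at 4 months and measured 305, 317, 274, 329 and 329.7 CPM at 14 months. The labels of 9 months all lay below those of 2 months, while those of 4 and 14 months reached into them. The log2 difference was -0.16 ± 0.04 at 4 months (edgeR, adjusted p 0.791), -0.23 ± 0.05 at 9 months (adjusted p 0.0914) and -0.12 ± 0.05 at 14 months (adjusted p 0.468), and in the first set -0.08 at middle and -0.04 at old age. Kif1c, which carries vesicles and RNA, measured 9.77, 12.3, 15.2, 16.7 and 14.3 CPM at 2 months and 17.6, 24.2, 20.9 and 17.8 at 9 months. The labels of 9 months all lay above those of 2 months, with a log2 difference of 0.55 ± 0.14 (adjusted p 0.238), and at 14 months the difference was 0.56 ± 0.19 (adjusted p 0.299) with overlapping labels. In the first set Kif1c differed by -0.48 at middle age and 0.61 at old age. Kif1c was called lower in oocytes than in cumulus cells of the second set, and cumulus markers were compared between the ages as well. They summed to 135.3 CPM in oocytes of 14 months, with labels from 119 to 163, and to 93.0 in those of 2 months, with labels from 74.9 to 121.5, Nr5a2 being the most abundant in both and Slc38a3 at 0 at 14 months. Of 11 tested, 10 lay above 0, 6 had an unadjusted p under 0.05, 1 was called, Inha (1.45, edgeR, adjusted p 0.0195), DESeq2 called 2, and the median was 0.70. At 9 months the sum was 104.4 CPM, 6 of 11 lay above 0, and the median was 0.09. The part of cumulus RNA in the differences of Kif1c was not tested.

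In cumulus cells of the second set edgeR called 0 of 38 members at 4 months (0% of all genes), with 1 at an unadjusted p under 0.05 (2.63%, and 6.83% of all genes) and 0 by DESeq2. At 9 months it called 0 of 38 (0.00869% of all genes), with 2 at an unadjusted p under 0.05 (5.26%, and 8.51% of all genes) and 0 by DESeq2. At 14 months it called 0 of 38 (0.131% of all genes), with 4 at an unadjusted p under 0.05 (10.5%, and 8.31% of all genes) and 0 by DESeq2. The 1-sided direction of the spindle and mitotic kinesins in old cumulus cells of the first set was not seen here. Of these 12, 1 lay above 0 and 11 below at 4 months (median -0.06), 4 above and 8 below at 9 months (-0.01, 1 at an unadjusted p under 0.05) and 7 above and 5 below at 14 months (0.03). The difference between cell types was tested at 14 months, where edgeR called 0 of 39 members (0.235% of all genes), with 6 at an unadjusted p under 0.05 (15.4%, and 5.99% of all genes) and 0 by DESeq2.

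Hyperovulation was compared at 2 months, with 5 labels with and 8 without the treatment. In oocytes edgeR called 0 of 39 members (0% of all genes), with 4 at an unadjusted p under 0.05 (10.3%, and 4.16% of all genes) and 0 by DESeq2. In cumulus cells it called 0 of 38 (0.952% of all genes), DESeq2 called 0, and 13 had an unadjusted p under 0.05 (34.2%, and 13.6% of all genes). Taking libraries as units called 13 (34.2%, and 13.2% of all genes), but libraries of a mouse are not independent.

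Kif11 had the lowest p among members in cumulus cells. It measured 135.6, 142.5, 129.6, 155 and 171 CPM in the labels with hyperovulation, and ranged from 87.3 to 143.4 (median 105) without. The lowest label with the treatment lay above the median without it, and the groups overlapped. Its log2 difference was 0.44 ± 0.13 (edgeR, unadjusted p 0.00339, adjusted p 0.12). With title prefix as a covariate it was called (0.46 ± 0.11, adjusted p 0.0312), and within prefix B1 alone (0.43 ± 0.15, adjusted p 0.318) or B2 alone (0.47 ± 0.16, adjusted p 0.295) it was not. Over all 9 other settings its log2 difference ran from 0.39 to 0.47 and its adjusted p from 0.0148 to 0.318, and 3 called it, the others being libraries as units and all groups in 1 fit. Kif2c ranged from 48.0 to 68.5 CPM (median 60.7) with and from 25.3 to 62.8 (median 38.65) without hyperovulation, with wide overlap. Its log2 difference was 0.52 ± 0.22 (adjusted p 0.304).

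As a list the spindle and mitotic kinesins of cumulus cells lay on 1 side, with 12 of 12 above 0, 6 of them at an unadjusted p under 0.05, and a median of 0.40 against -0.02 for all genes. The same number lay above 0 with DESeq2 (median 0.39), with gene length offsets (0.39) and within the libraries whose titles begin with B1 (0.27) or B2 (0.50). Their summed level was 864 ± 44.1 CPM (SD, n = 5) with and 663 ± 157 (n = 8) without hyperovulation, and ranged from 823 to 929.6 with and from 472 to 909 without. The labels without the treatment thus spread over the wider range and some reached the treated level. Transport kinesins were divided, with 3 higher and 3 lower at an unadjusted p under 0.05 and a median of -0.07. Cumulus markers summed to 14906.3 CPM with and 11624.9 without hyperovulation, with 7 of 12 above 0 and 1 called, Inhba (2.05, edgeR, adjusted p 0.0369), while DESeq2 called 3. Their part in the differences of kinesins was not tested. Of the proliferation markers 17 of 17 lay above 0 (16 within B1), 11 at an unadjusted p under 0.05, 0 called by edgeR and 1 by DESeq2, with a median of 0.39, and no test related them to the spindle kinesins. In oocytes 3 of the 12 spindle members lay above 0 and 9 below, with a median of -0.03, and the interaction of hyperovulation with cell type put 12 of 12 below 0 with 7 at an unadjusted p under 0.05 and a median of -0.44 against 0.05 for all genes. Proliferation markers had 16 of 17 below 0 there, 10 at an unadjusted p under 0.05, 0 called by edgeR and 1 by DESeq2, and a median of -0.39. Of the cumulus markers 10 of 12 lay below 0, with 0 at an unadjusted p under 0.05 and a median of -0.45. In that interaction edgeR called 0 of 39 members (0.277% of all genes), with 16 at an unadjusted p under 0.05 (41%, and 7.56% of all genes), and DESeq2 called 1, Kif11, with a lower effect in oocytes.

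**Figure D3:**
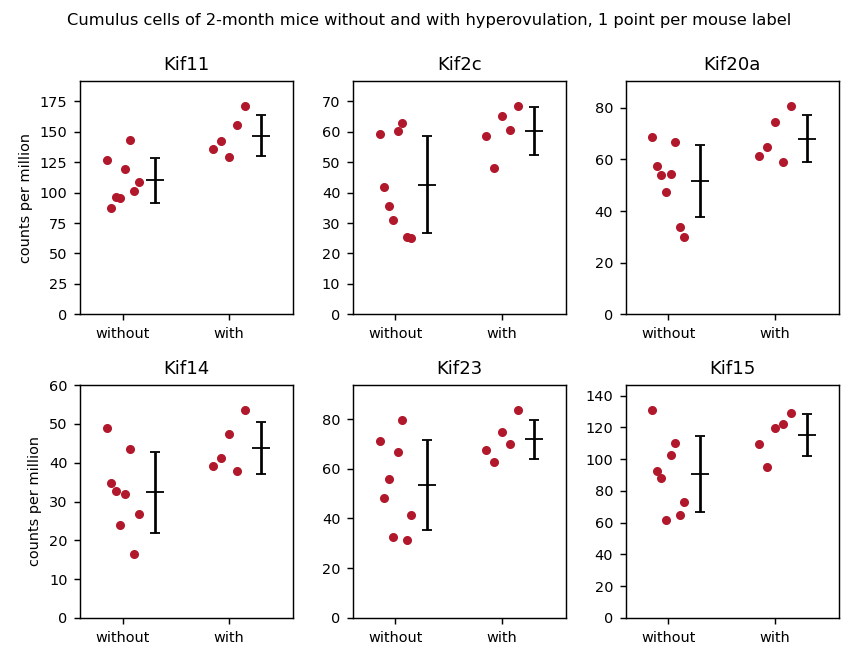
Level of the 6 spindle and mitotic kinesins with an unadjusted p under 0.05 in cumulus cells of 2 months, in CPM, with 1 point per mouse label (8 without and 5 with hyperovulation) and the mean and SD of each group. The means are higher with hyperovulation in each panel and the labels overlap.

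Across the comparisons of ages, diet and hyperovulation, edgeR over mouse labels with each comparison fitted by itself called Kif11 and Kif2c in CR oocytes alone. Other settings also called Kif11 in cumulus cells with hyperovulation and, with libraries as units, in old cumulus cells, and called Kif2c in cumulus cells with hyperovulation with libraries as units. DESeq2 called Kif11 lower in the interaction of hyperovulation with cell type. In oocytes their log2 differences were 0.30 and 0.05 at middle age, 0.24 and 0.01 at old age, 0.06 and 0.03 at 4 months, 0.02 and 0.02 at 9 months, 0.02 and 0.00 at 14 months, and -0.05 and -0.11 with hyperovulation. In cumulus cells they were 0.17 and 0.19 at middle age, 0.25 and 0.26 at old age, -0.24 and -0.05 at 4 months, -0.33 and -0.23 at 9 months and -0.09 and -0.11 at 14 months.

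**Figure D4:**
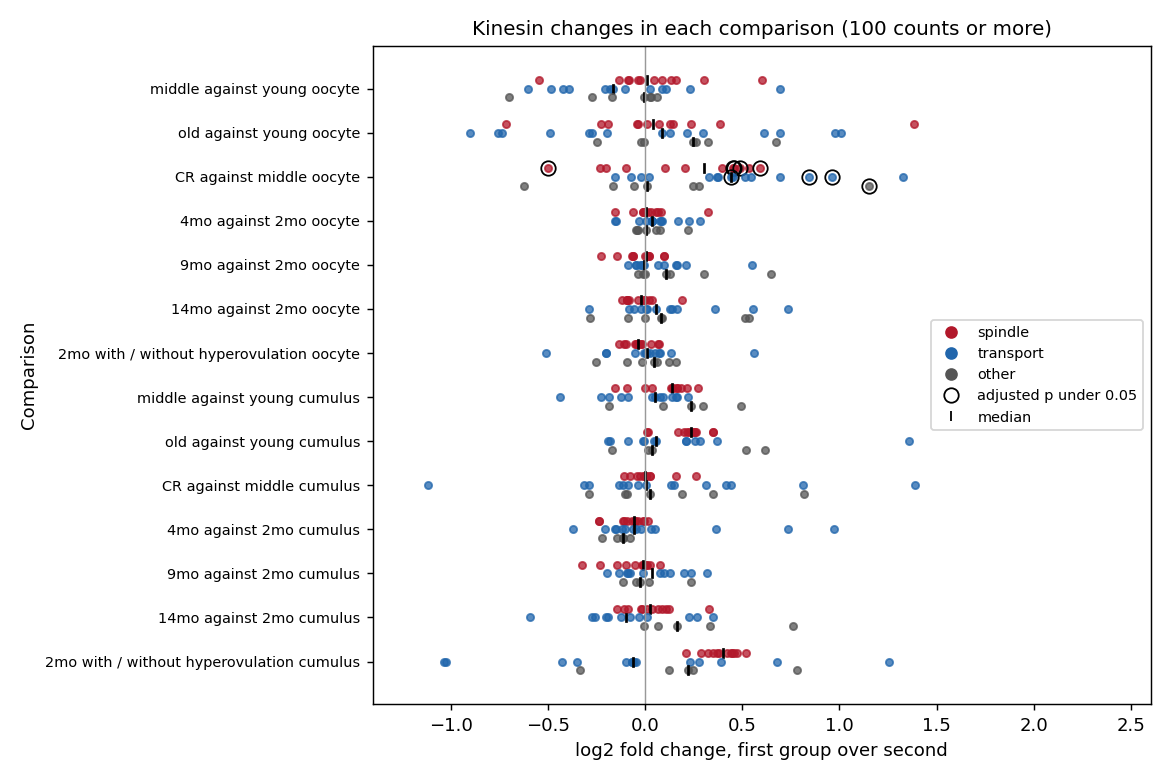
Log2 difference of each member with at least 100 counts in each comparison of ages, diet and hyperovulation, with members coloured by role and a tick at the median of each role. Circles mark members called by edgeR over mouse labels with each comparison fitted by itself, which occur in CR oocytes alone, 8 above 0 and Kif18b below.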

How the data were processed

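Full-length total RNA of single oocytes and of their cumulus cells was sequenced by RamDA-seq. The authors aligned reads to GRCm38 with HISAT2 2.0.5 and counted them without strand with featureCounts 1.5.1, and reads that map to more than 1 place were split. The deposited expected counts are therefore not always whole, and 36.8% of those above 0 in the first set and 35.1% of those for the second were not. The deposited RPKM were used for levels between genes. In CR libraries 0.763% of deposited RPKM lay within 0.1% of values recomputed from the counts, against 100% in the other libraries, so CR levels are given as CPM only.

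Counts were rounded and summed per mouse label. A gene was tested where 5 or more of the compared libraries counted it, with edgeR 4.0.16 in R 4.3.3 (TMM, quasi-likelihood), and p were adjusted by Benjamini-Hochberg over all genes tested, with a call at an adjusted p under 0.05. Oocytes and cumulus cells were compared with the mouse label as a block, and interactions were tested as a term of that fit. Every p printed without another name is from edgeR. SE is that of the log2 difference, computed as its size divided by the square root of the quasi-likelihood F statistic. It thus follows from the test and is not a separate estimate. CPM were normalised separately for each cell type and set. The procedure was tested on simulated data. Label pairing was checked by correlating gene levels between the cell types of a mouse label, with a median r of 0.0437 over 11 pairs and 0.122 over 30, which is too weak to check the pairing.

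The alternatives were DESeq2 1.42.0, libraries as units, no filter, edgeR's own filter, all groups in 1 fit, gene length offsets, title prefix as a covariate or each prefix alone, all deposited libraries, no mouse block, each condition alone, and each mouse label left out. Left out was 1 complex whose oocyte library resembled cumulus cells, chosen by a rule on correlation. Named are the 5 highest members by median RPKM, the 5 widest called differences each way between cell types, every called member up to 12 per comparison, and Kif11 and Kif2c. The members and lists were chosen with earlier results of these data known.

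Besides the marker lists of the report, luteal-like markers (4 genes) summed to at most 228.7 CPM in a group, theca or stroma markers (3) to at most 15.3, leukocyte markers (3) to at most 5.26, and endothelial markers (2) to at most 84.9, the last mostly Pecam1 in oocytes.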

Additional observations from a re-analysis of the deposited data

Results flagged for a closer look

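In 39 groups of 4 to 10 mouse labels, the values behind the named members were searched for a label far from the others, and chance finds about 1 in 20. It found 2. Kif11 in cumulus cells of 14 months had a highest label, 14mo41, at 174.5 CPM, with the others from 124.7 and a median of 132.1, and the gap to the next label was 0.782 of the group's range. Kif2c in oocytes of 9 months had a highest label, 9mo24, at 212.3 CPM, with the others from 189.8 and a median of 190.1, and the gap was 0.971 of the range. No cause was tested for either.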

How the results depend on the processing

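Most reported counts of called members are 0, and of their recomputed counts 99 of 114 stayed 0 under other settings and 143 of 147 with a mouse label left out, which says little of how stable they are. For oocytes against cumulus cells 15 of 15 counts under other settings stayed within a factor of 1.5 of the reported count. For CR against middle-aged oocytes 4 of 7 did, and 2 of 7 with a label left out. No named difference that was called, in the reported fit or in another, reversed direction. Uncalled ones that turned sign are described further on. With libraries as units the calls, each with the share of all genes called, were 4 in old against young oocytes (7.39%), 22 of 38 in CR against middle-aged oocytes (57.9% of members and 30.0% of all genes), 1 in oocytes at 9 months (0.160%), 1 in oocytes at 14 months (1.14%), 4 in old against young cumulus cells (3.96%), 2 in CR against middle-aged cumulus cells (3.60%) and 13 in cumulus cells with against without hyperovulation (13.2%). Without the filter they were 2 in old against young oocytes (1.61%), 2 in oocytes at 9 months (0.210%) and 3 in old against young cumulus cells (2.37%). DESeq2 called 11 in CR against middle-aged oocytes (13.7%), 2 in oocytes at 9 months (0.249%), 4 in the interaction of diet with cell type (2.97%) and 1 in that of hyperovulation (0.653%). In CR against middle-aged oocytes gene length offsets called 4 (7.75%) and all deposited libraries 0 (2 genes). In hyperovulation cumulus cells all groups in 1 fit called 1 (2.57%) and title prefix as a covariate 1 (2.58%), Kif11 in both, and prefix B1 alone called 1 in oocytes at 14 months (0.687%). With a mouse label left out the calls ran from 0 to 13 in old against young oocytes (18.3% of all genes where 13 were called), from 1 to 12 in CR against middle-aged oocytes (2.47% and 14.1%), and from 0 to 1 in hyperovulation cumulus cells and in the interactions of diet and of hyperovulation with cell type. Where leaving out a label left 1 label in a group, that label was taken to vary like the other group. The cause was not tested.

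Among the named members, 398 values kept their direction and their side of the threshold under other settings, 20 lost the call, 5 gained it and 4 levels moved by more than the spread between mouse labels. With a label left out 265 were kept in this sense and 32 lost the call. Over the other settings the log2 difference in CR oocytes ran from 0.64 to 0.82 for Kif5b, from 0.43 to 0.71 for Kif4, from 0.32 to 0.44 for Kif11, from 0.34 to 0.56 for Kif2c, from 0.28 to 0.61 for Kif23, from 0.90 to 1.27 for Kif26b, from 0.73 to 0.99 for Kif13b, from 0.16 to 0.43 for Kif1b and from -0.58 to -0.52 for Kif18b. Kif1b was called in 3 of the 7 settings, and Kif5b was called in each of the 7 fits without a label. The search for protein motifs was not run.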

Other observations

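Kifc5b, a close copy of Kifc1, was at library medians of 8.52 and 7.88 RPKM in oocytes of the first and second sets and 8.72 and 8.52 in cumulus cells, and shares reads with Kifc1. Kif1bp was at 9.89 and 10.4 RPKM in oocytes and 6.95 and 5.75 in cumulus cells. Kif4-ps, a pseudogene, had counts in 55 of 73 and 99 of 127 oocyte libraries and in 3 of 71 and 1 of 128 cumulus libraries, at a median of at most 0.137 RPKM. Kif12 had 4 counts in 4 of 128 cumulus libraries of the second set, and Kif2b had 2 counts in 1 oocyte library of the first. In the left-out complex the library labelled oocyte held 8 counts of Kif17, 168.4 of Kif15, 55 of Kif14 and 0 of Kif21b.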
